A study of Mus musculus with 13 samples.

Results

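The response of the mouse brain to a transient stroke was described in animals that kept their microglia, by comparing the tMCAO_MG_CON libraries (n = 4) with the sham_MG_CON libraries (n = 3) across all genes. These are 7 of the 13 libraries of the series, chosen by the group in their titles. The other 6 came from mice depleted of microglia, 4 labelled sham_MG_DE and 2 labelled tMCAO_MG_DE, and entered the joining and filtering of genes and the estimate of the spread between libraries. RNA was taken from brain, and each library carries an animal identifier of its own. The sources used here do not give the side or region sampled or the time after surgery.

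All 7 mice were labelled CX3CR1creER/+ : Rosa26iDTR/+, with a differing number in the name of the receptor locus in some entries, read here as 1 genotype. Such mice carry a tamoxifen-inducible Cre recombinase in 1 copy of Cx3cr1, a gene of microglia and other mononuclear phagocytes, and a diphtheria toxin receptor that is switched on by Cre. Both groups received 2 doses of tamoxifen at 7 to 8 weeks of age and then normal saline in place of the toxin, so tamoxifen, Cre and the receptor were shared by sham and stroke. In the occluded group a filament closed the right middle cerebral artery for 60 min before reperfusion (transient middle cerebral artery occlusion, tMCAO). The protocol gives male mice of 6 to 8 weeks at surgery, which differs from the tamoxifen schedule of 7 to 8 weeks plus 30 days, so the age at surgery is uncertain.

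In the brain, a lack of blood flow stops neuronal firing and kills neurons in the core of the lesion, while astrocytes and microglia around it change state. Reactive astrocytes raise intermediate filaments and secreted acute-phase proteins, and microglia and incoming macrophages raise lysosomal, lipid-handling and chemokine genes. Endothelium, pericytes and fibroblasts of the vessel wall remodel the extracellular matrix over the same period.

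Depth ranged from 16239763 to 20419186 counts per library, and 16940 of the 21056 genes in all tables had enough counts to be tested. Levels are CPM, counts per 1000000 of the TMM-scaled library total, and are given in replicate order. A gene was called when edgeR (quasi-likelihood test, Benjamini-Hochberg adjustment) gave an adjusted p under 0.05, and log2 fold changes are occluded over sham, ± the standard error. Mitochondrial genes took 9.58% to 9.85% of counts in sham and 9.03% to 9.86% in occluded libraries. Across genes, log2 CPM correlated at r = 0.982 to 0.987 within groups and at 0.969 to 0.979 between them. On the first principal component of the 7 libraries (43.6% of the variance) the sham libraries lay at -41.53, -29.88 and -38.12 and the occluded at 17.65, 31.77, 39.42 and 20.69. Replicate 4 of the occluded group, whose treatment entry reads sham surgery against its title, lay among the occluded libraries at 20.69, and its Gfap level was 924 CPM.

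A sham library stood apart from the others in neutrophil and islet genes and in Cx3cr1. Summed over 6 neutrophil markers, replicate 2 of sham_MG_CON held 32.4 CPM against 1.23 and 1.36 CPM in the other sham libraries and 1.26 to 3.18 CPM in the occluded libraries. It also held 75 counts of Ins2 and 36 of Gcg, hormones of the pancreatic islet, which were at 0 in the other 6 libraries. In the depleted sham group, replicate 3 held nearly the same counts of these hormones, 75 of Ins2 and 41 of Gcg. Cx3cr1, the fractalkine receptor, was at 24.2 CPM in replicate 2 of sham_MG_CON and at 1.05 to 2.09 CPM in the other 6 libraries compared.

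Of the genes tested, 1430 were called, which is 8.44%: 870 higher after occlusion (5.14%) and 560 lower (3.31%). The counts of calls in each gene list below are to be read beside these shares. The rises were larger than the falls, with a median log2 fold change of 0.99 among genes called higher and -0.41 among genes called lower, against 0.02 over all genes tested. A change of at least 2-fold was reached by 465 called genes (2.74%), namely by 432 of the genes called higher (2.55% of genes tested) and by 33 of those called lower (0.195%). Beyond 3 on the log2 scale lay 89 rises and no fall. The lowest library of one group lay above the highest of the other for 4001 genes (23.6%), and 1404 called genes were among them. The split of calls depended on the scaling: 60.8% of calls were rises with TMM, and 1463 of 1737 calls with library totals only, which move the median of all genes to 0.11. Without sham replicate 3, sham replicate 1 or occluded replicate 3 the number of calls was 564, 666 and 935, and it was 1008 without sham replicate 2.

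**Figure D1:**
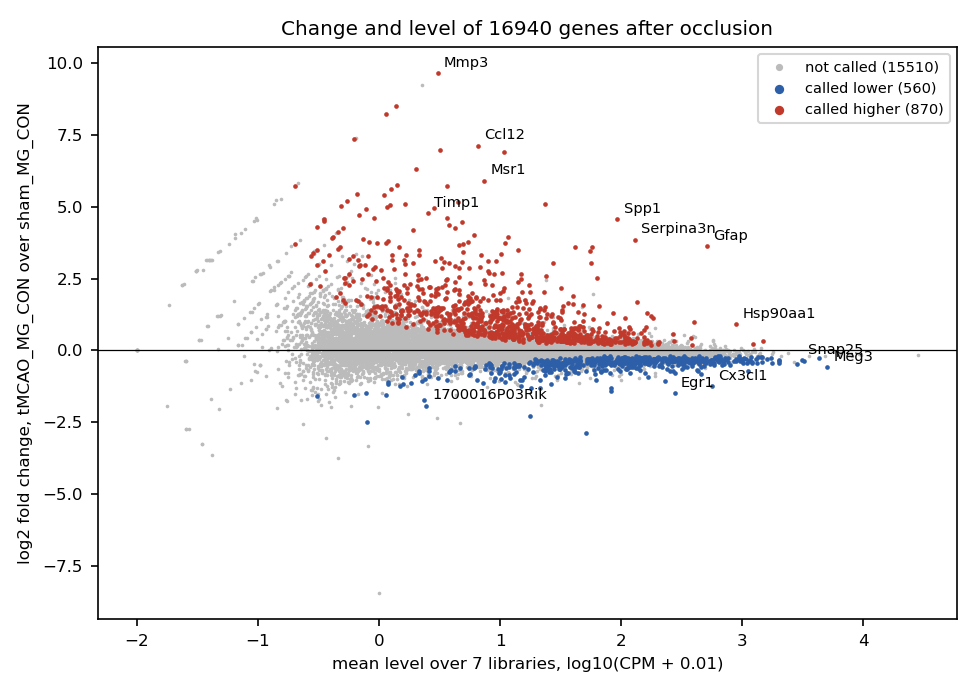
Each point is 1 of the 16940 genes tested, with its mean level over the 7 libraries (log10 of CPM + 0.01) on the horizontal axis and its log2 fold change, tMCAO_MG_CON over sham_MG_CON, on the vertical axis. The 870 genes called higher reach far up at low and middle levels, while the 560 called lower lie mostly close to 0, many of them at high levels.

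Genes of reactive astrocytes rose almost without exception. Of 13 pan-reactive genes tested, 12 were called higher and none lower (median log2 fold change 2.89, against 0.02 over all genes), and 12 were called without any one of the 7 libraries. Gfap, the intermediate filament of astrocytes, on chromosome 11 from 102887336 to 102900912 (GRCm38, as all coordinates here), stood at 51, 91.4 and 63.4 CPM in sham and at 667, 790.2, 1012 and 924 CPM in occluded libraries. Its groups lay far apart, with a log2 fold change of 3.63 ± 0.20 (edgeR adjusted p = 1.2e-06). Serpina3n, a secreted protease inhibitor, rose from 11.6, 16.5 and 16.7 CPM to 140.3, 269, 198 and 254 CPM (3.85 ± 0.25, edgeR adjusted p = 3.6e-06). Osmr, the receptor for oncostatin M, rose from 4.13, 6.64 and 5.31 CPM to 45.1, 36.4, 56.2 and 37.8 CPM (3.03 ± 0.20, edgeR adjusted p = 3.6e-06). For both genes every occluded library was several times above the highest sham library.

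Genes of resting astrocyte function did not rise as a group. Of 15 tested, 2 were called higher and 1 lower, against 5.14% and 3.31% over all genes tested. The median log2 fold change was -0.07. In the fit of only the 7 libraries compared, 2 were called higher and 2 lower. The list's summed level was 7152 to 7213 CPM in sham and 5508 to 6423 CPM in occluded libraries. Glul, the glutamine synthetase that clears glutamate, fell from 1723, 1679 and 1639.6 CPM to 1223, 1283, 1221 and 1389 CPM (-0.39 ± 0.06, edgeR adjusted p = 0.0022), with no overlap between groups. Slc1a2, an abundant glutamate transporter, stood at 3076, 3077 and 3104 CPM and at 2202, 2263, 2369 and 2580.4 CPM but was not called. It stood at 488.6 CPM in sham_MG_DE replicate 2 and 511.2 CPM in tMCAO_MG_DE replicate 1, which enter the estimate of the spread. The rises were those of Aqp4, the water channel of astrocyte endfeet (0.62 ± 0.14, edgeR adjusted p = 0.016), and Aldh1l1, a folate enzyme (0.42 ± 0.10, edgeR adjusted p = 0.018). Both calls ended without sham replicate 3, that of Aqp4 also without replicate 2 and that of Aldh1l1 also without replicate 1.

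Among myeloid genes, many of an activated state rose. Of 18 genes of disease-associated microglia, the lysosomal and lipid-handling state, 12 were called higher and none lower (median 1.38). The count was 8 without sham replicate 1 or without sham replicate 3. Spp1, osteopontin, on chromosome 5 from 104435118 to 104441050, rose from 4.99, 8.79 and 6.38 CPM to 85, 142.9, 258.8 and 145.8 CPM (4.56 ± 0.37, edgeR adjusted p = 2.4e-05). It shares 309 exonic bases with an unconfirmed transcript on the same strand. Cd68, a lysosomal protein of phagocytes, rose from 7.56, 7.12 and 5.82 CPM to 24.9, 19.1, 23.9 and 23.8 CPM (1.75 ± 0.15, edgeR adjusted p = 3.1e-05), with occluded libraries close to each other. Lgals3, galectin-3, rose from 0.215, 0.299 and 0.226 CPM to 4.47, 4.89, 10.8 and 4.51 CPM (4.61 ± 0.46, edgeR adjusted p = 9.9e-05). In bulk tissue, fewer or more cells of a type cannot be told apart from a change of RNA per cell.

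Of 20 homeostatic microglia genes, 6 were called higher and none lower (median 0.21), and 4 were called higher without any one of the sham libraries. The rises in the list included C1qa and C1qc, subunits of the first complement component, and Fcrls, an Fc receptor-like protein. C1qa went from 34.7, 38.8 and 28.7 CPM to 57.3, 60.9, 61.2 and 59.1 CPM (0.81 ± 0.15, edgeR adjusted p = 0.0053), and Fcrls from 17.5, 14.4 and 16.7 CPM to 46.7, 42.7, 63.5 and 52.9 CPM (1.66 ± 0.31, edgeR adjusted p = 0.0064). Csf1r, the growth factor receptor on which microglia depend, stood at 92, 93.4 and 92.8 CPM in sham and at 76.4, 86.3, 97.4 and 91.5 CPM after occlusion (-0.08 ± 0.22, edgeR adjusted p = 0.87), with overlapping groups. Tmem119, a membrane protein of resting microglia, stood at 16.3 to 18.6 CPM and 13.4 to 17.6 CPM (-0.15 ± 0.31, edgeR adjusted p = 0.82).

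P2ry12, the purinergic receptor of surveying microglia, was singled out after its values were seen, because its reading turned on the sham library that stood apart. It stood at 33.2, 10.1 and 32.8 CPM in sham and at 13.2, 10.6, 14.8 and 13.7 CPM in occluded libraries (-0.96 ± 0.39, edgeR adjusted p = 0.15). Sham replicate 2 lay below all occluded libraries and the other 2 sham libraries above them. Without that library the log2 fold change was -1.34 ± 0.32 (edgeR adjusted p = 0.032). The same library was the high one for Cx3cr1, at 1.13, 24.2 and 1.19 CPM in sham and 1.88, 1.05, 1.06 and 2.09 CPM after occlusion (-2.52 ± 0.93, edgeR adjusted p = 0.12), and without it the log2 fold change of Cx3cr1 was 0.39 (edgeR adjusted p = 0.82).

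Macrophage genes rose in part. Of 13 genes of infiltrating monocytes and macrophages tested, 5 were called higher and none lower (median 0.82). Msr1, a scavenger receptor that takes up lipid and debris, rose from 0.268, 0.179 and 0.169 CPM to 6.62, 18.4, 14.8 and 11 CPM (5.90 ± 0.54, edgeR adjusted p = 5e-05), and Ms4a6d from 0.858, 1.73 and 1.02 CPM to 6.07, 11.2, 9.29 and 8.25 CPM (2.86 ± 0.30, edgeR adjusted p = 0.00012). Cd14, a co-receptor for bacterial lipopolysaccharide, rose from 1.23, 1.97 and 2.32 CPM to 4.14, 18.3, 20.2 and 7.08 CPM (2.75 ± 0.49, edgeR adjusted p = 0.005). These 3 genes are also made by activated microglia. Ccr2, Chil3 and Plac8, markers of recent blood monocytes, had log2 fold changes of 0.60, 1.05 and 0.81 (edgeR adjusted p = 0.81, 0.67 and 0.69). Without sham replicate 2 these were 1.05, 6.43 and 1.62 (edgeR adjusted p = 0.74, 0.18 and 0.5).

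Of 13 complement genes, 6 were called higher and none lower (median 0.71), and 4 without sham replicate 1, sham replicate 3 or occluded replicate 2. C4b, the fourth complement component, rose from 7.3, 17.3 and 8.7 CPM to 60.4, 94.7, 97.4 and 108 CPM (3.03 ± 0.28, edgeR adjusted p = 5.2e-05), although a near-identical gene copy makes its count uncertain. C5ar1, the receptor for the anaphylatoxin C5a, rose from 0.215, 1.2 and 0.847 CPM to 5.02, 9.45, 9.59 and 7.91 CPM (3.42 ± 0.38, edgeR adjusted p = 0.00023). The summed level of the list was 66.2 to 104 CPM in sham and 167 to 241 CPM in occluded libraries.

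Cytokines and chemokines rose widely, in transcripts that were rare in sham brain. Of 18 tested, 15 were called higher and none lower (median 2.77). The count was 11 without sham replicate 1 and 12 without sham replicate 2 or 3 or occluded replicate 2 or 3. Ccl2, a chemokine for monocytes, rose from 0.215, 0 and 0.226 CPM to 1.82, 5.56, 8.88 and 3.3 CPM (4.96 ± 0.67, edgeR adjusted p = 0.00096). Ptgs2, the inducible cyclooxygenase that makes prostaglandins, rose from 14.1, 13.3 and 12.9 CPM to 29.7, 31.3, 34.1 and 34.2 CPM (1.27 ± 0.17, edgeR adjusted p = 0.00081). Its libraries were tight in both groups, while Ccl2 differed among occluded libraries by several fold. Tnf, with 64 counts in the occluded and 1 in the sham group, had a ratio of 44.3 (95% Poisson interval 7.68 to 1778).

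Cxcl10, a chemokine for T cells, was singled out after its values were seen because its promoter holds 2 matches to the kappaB motif, the site of NF-kappaB factors. Its level went from 0.697, 0.239 and 0.113 CPM to 3.92, 8.25, 17.4 and 3.06 CPM (4.48 ± 0.69, edgeR adjusted p = 0.0022), and was 5.48 without sham replicate 1 and 3.80 without occluded replicate 3 on the log2 scale. Motifs were searched on both strands of RefSeq promoter windows (GRCm38.p6), from 250 bases before to 50 after each start, which existed for 12001 of the genes tested. The kappaB motif was in a window of 6 of the 12 cytokine list genes with an entry and of 6.53% of all genes with one. The list was chosen with its genes known, so the match is a description of its members. Tnfaip3, also with 2 matches, had a log2 fold change of -0.16. The 200 bases before the start of Cxcl10 (chr5:92348890-92349089, minus strand) follow, with the matches in capitals.
Cxcl10: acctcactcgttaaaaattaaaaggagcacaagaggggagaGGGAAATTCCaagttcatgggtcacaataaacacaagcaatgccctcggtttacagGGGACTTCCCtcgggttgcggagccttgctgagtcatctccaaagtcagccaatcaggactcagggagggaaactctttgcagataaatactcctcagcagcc

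The study's title concerns interleukin-1, its antagonist and the neutrophil chemokine CXCL1. Of 12 genes of this axis tested, 6 were called higher and none lower (median 1.72), and 4 without sham replicate 1 or without sham replicate 3. Il1rn, the receptor antagonist, on chromosome 2 from 24336853 to 24351494, stood at 0, 0.0598 and 0.169 CPM in sham and at 0.993, 2.69, 5.12 and 2.33 CPM in occluded libraries (5.08 ± 0.87, edgeR adjusted p = 0.0039). Without sham replicate 3 its log2 fold change was 6.31. Cxcl1 stood at 0.215, 0 and 0.113 CPM and at 0.552, 2.21, 3 and 0.631 CPM (3.74 ± 0.80, edgeR adjusted p = 0.013), a call that ended without sham replicate 3, and without sham replicate 1 the log2 fold change was 4.62. Replicates 2 and 3 of the occluded group held most of the Cxcl1. Cxcl5, another neutrophil chemokine, had 46 counts in occluded and 1 in sham libraries, a ratio of 31.9 (95% Poisson interval 5.44 to 1285).

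Transcripts of neutrophils themselves did not pass the test. Of 11 neutrophil genes tested, edgeR called none in either direction (1 at an unadjusted p under 0.05), and DESeq2 and limma called none. The list's median was -2.0, and without sham replicate 2 it was 0.66 over the 9 genes then tested. Ly6g, the defining surface marker, had 0 counts in all 4 occluded libraries. S100a8 and S100a9, abundant granulocyte alarmins, stood at 0.437 to 1 CPM and 0.631 to 2.06 CPM after occlusion, against 0.376 and 0.452 CPM and 0.429 and 0.791 CPM in sham replicates 1 and 3. In sham replicate 2 they stood at 8.49 and 15.6 CPM.

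Interferon-stimulated genes rose as a group, by amounts that differed between occluded libraries. Of 24 tested, 19 were called higher and none lower (median 1.41). Mx1, an antiviral GTPase, rose from 0.215, 0.419 and 0.339 CPM to 1.49, 2.25, 5.29 and 1.41 CPM (2.99 ± 0.55, edgeR adjusted p = 0.0057). Ifit2, an RNA-binding antiviral protein, rose from 14.3, 13.6 and 12.8 CPM to 21.6, 24.6, 31.2 and 21.1 CPM (0.86 ± 0.15, edgeR adjusted p = 0.0039). Replicate 3 of the occluded group was the highest for both genes, and the list's summed level was 427 CPM there against 237 to 272 CPM in the other occluded and 139.1 to 169.2 CPM in the sham libraries. Without occluded replicate 3 the log2 fold change of Mx1 was 2.39. The count of calls fell to 5 without sham replicate 3, to 6 without sham replicate 1 and to 12 without occluded replicate 3.

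The interferon-stimulated response element, written as GAAA, 2 bases of any kind and GAAA and searched on both strands, lay in a promoter window of 11 of the 17 list genes with an entry (64.7%) and of 3.65% of all genes with one. The list was built from genes known to respond to interferon, so the match is a description of its members. Isg15, an ubiquitin-like modifier, and Ifit3 are shown, singled out for their matches. Isg15 went from 0.966, 1.44 and 0.96 CPM to 2.48, 2.21, 7.12 and 2.13 CPM (1.62 ± 0.44, edgeR adjusted p = 0.04), and Ifit3 from 9.07, 10.6 and 6.89 CPM to 19.2, 20.6, 38.9 and 17 CPM (1.43 ± 0.33, edgeR adjusted p = 0.017). Both groups of each gene were separate, but both calls ended without sham replicate 1 or sham replicate 3, and that of Isg15 also without sham replicate 2 or occluded replicate 3. The 200 bases before each start are those of chr4:156200819-156201018 (minus strand) for Isg15, where 3 matches overlap, and chr19:34583329-34583528 (plus strand) for Ifit3, where 2 matches are in capitals.
Isg15: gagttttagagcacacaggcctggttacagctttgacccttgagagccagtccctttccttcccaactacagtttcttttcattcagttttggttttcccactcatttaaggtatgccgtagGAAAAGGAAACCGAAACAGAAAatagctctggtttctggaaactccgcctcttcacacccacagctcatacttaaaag
Ifit3: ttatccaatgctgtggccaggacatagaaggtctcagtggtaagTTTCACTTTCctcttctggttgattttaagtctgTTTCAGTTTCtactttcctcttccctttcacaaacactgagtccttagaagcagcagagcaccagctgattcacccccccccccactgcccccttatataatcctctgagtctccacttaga

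In the interleukin-6 family pathway, the cytokine Lif, the receptor Osmr and the transducer Stat3 rose. Of 20 genes, 10 were called higher and none lower (median 1.04), and 6 were called higher without sham replicate 1. Stat3, the transcription factor of the pathway, on chromosome 11 from 100885098 to 100939540, stood at 45.8, 45.6 and 49.9 CPM in sham and at 97.6, 130.5, 128 and 107 CPM in occluded libraries (1.30 ± 0.11, edgeR adjusted p = 3.1e-05). Bcl3, a nuclear IkappaB protein, rose from 0.268, 0.239 and 0.395 CPM to 3.09, 7.72, 8.53 and 6.06 CPM (4.37 ± 0.48, edgeR adjusted p = 0.0002). Among the receptors, the log2 fold changes of Il6ra and Lifr were 0.39 and 0.10 (edgeR adjusted p = 0.17 and 0.63), beside the rise of Osmr given above.

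Socs3, the feedback inhibitor of the pathway, rose from 2.84, 5.38 and 4.12 CPM to 11.9, 32.7, 27.5 and 19.7 CPM (2.48 ± 0.31, edgeR adjusted p = 0.0005), with occluded replicate 1 the lowest of its group. It is shown because its promoter holds the palindrome TTCNNNGAA, the site of STAT factors. That motif lay in a window of 3 of the 18 list genes with an entry (16.7%) and of 8.36% of all genes with one. Of the others, Cish, with 2 matches, had a log2 fold change of 0.09, and Fgl2, with 1 match, of 1.72. Here too the list was chosen with its genes known, so the match describes its members. The 200 bases before the start of Socs3 (chr11:117969367-117969566, minus strand) follow, with the match in capitals.
Socs3: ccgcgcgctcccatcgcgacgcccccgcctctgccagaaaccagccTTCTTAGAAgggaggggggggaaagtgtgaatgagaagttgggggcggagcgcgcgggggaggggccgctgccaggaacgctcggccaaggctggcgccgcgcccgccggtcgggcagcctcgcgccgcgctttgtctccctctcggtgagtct

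Matrix proteases and their inhibitors held some of the largest rises of the comparison. Of 20 tested, 10 were called higher and none lower (median 1.14). Mmp3, stromelysin-1, on chromosome 9 from 7445822 to 7455975, had no count in any sham library and stood at 0.772, 6.09, 10.5 and 3.93 CPM in the occluded libraries, which is at least 30.8-fold higher against a floor of 3 counts per sham library (edgeR adjusted p = 0.0078). Mmp12, the macrophage elastase, had 259 counts in occluded and 2 in sham libraries, a ratio of 89.7 (95% Poisson interval 24.6 to 745). Both were lowest in occluded replicates 1 and 4 and highest in replicate 3. Adamts1, a proteoglycan-cleaving protease, rose from 9.55, 12.8 and 9.6 CPM to 31.6, 57.1, 67.2 and 36.4 CPM (2.17 ± 0.23, edgeR adjusted p = 0.00017). Timp1, a secreted metalloproteinase inhibitor, rose from 0.215, 0 and 0.226 CPM to 2.54, 3.16, 8.94 and 2.57 CPM (4.77 ± 0.73, edgeR adjusted p = 0.0022), and by 4.14 without occluded replicate 3.

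Of 20 fibroblast and matrix genes, 8 were called higher and none lower (median 0.76). The count was 3 without sham replicate 1 and 5 without either sham replicate 3 or occluded replicate 3. Tnc, the matrix glycoprotein tenascin-C, rose from 2.31, 0.957 and 1.19 CPM to 7.28, 12.9, 23.5 and 7.91 CPM (3.10 ± 0.44, edgeR adjusted p = 0.0015). Col1a1, fibrillar collagen, rose from 3.33, 4.37 and 3.56 CPM to 15.3, 24.6, 8.88 and 10.2 CPM (1.98 ± 0.38, edgeR adjusted p = 0.0069), and unlike Tnc it was lowest in occluded replicate 3. Col4a1, a collagen of the vessel basement membrane, rose from 86.3, 79.8 and 90.4 CPM to 107, 172, 163 and 137 CPM (0.76 ± 0.14, edgeR adjusted p = 0.006).

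Some endothelial adhesion molecules rose from very low levels. Of 12 endothelial activation genes, 6 were called higher and 1 lower (median 0.58), and 3 were called higher without sham replicate 1 or without sham replicate 3. Selp, P-selectin, had 150 counts in the occluded and none in the sham libraries, which is at least 11.5-fold higher against a floor of 3 counts per sham library (edgeR adjusted p = 0.0052). Sele, E-selectin, had 144 and 2 counts, a ratio of 49.9 (95% Poisson interval 13.6 to 416). Selectins let blood leukocytes roll on activated endothelium. Icam1, which arrests them, rose from 1.61, 4.01 and 1.58 CPM to 6.51, 7.29, 10.8 and 7.18 CPM (1.73 ± 0.32, edgeR adjusted p = 0.0063). Vcam1, another adhesion molecule, had a log2 fold change of 0.16. Exons of a transcript on the opposite strand overlap Selp, and whether counting used strand is not given in the sources used here.

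Genes of the blood-brain barrier and of the pericyte wall gave fewer calls. Of 16 barrier genes, edgeR called none (median -0.06), with 4 at an unadjusted p under 0.05. DESeq2 called 2, Abcb1a and Slco1c1, and limma none. Slc2a1, the glucose transporter of brain endothelium, stood at 114.6, 144.6 and 119.1 CPM in sham and at 131.6, 166.5, 153.6 and 179.4 CPM in occluded libraries (0.32 ± 0.14, edgeR adjusted p = 0.17), and Tjp1, a tight junction scaffold, at 141.5, 136 and 139.8 CPM and 148.3, 129.9, 150.3 and 151.1 CPM (0.06 ± 0.08, edgeR adjusted p = 0.71). Both genes overlapped between groups. Of 13 pericyte and smooth muscle genes, 5 were called higher and 1 lower (median 0.25), but none was called without sham replicate 1 or without sham replicate 3, and the count of rises was 2 without occluded replicate 2, and 3 without sham replicate 2 or occluded replicate 3.

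**Figure D2:**
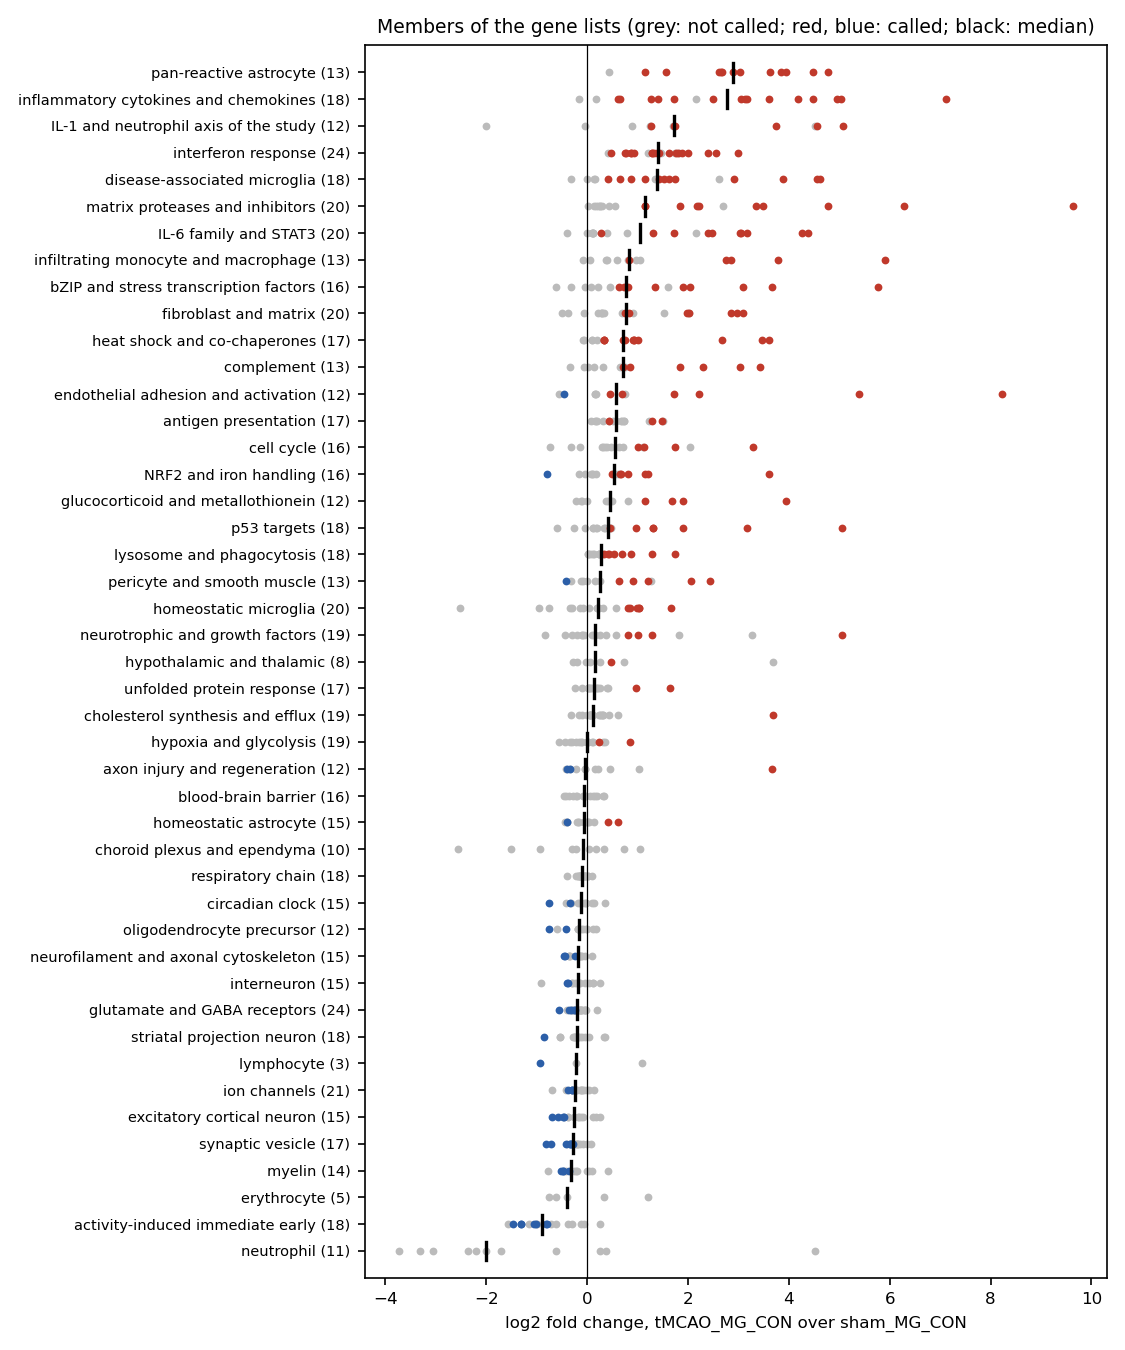
Each row is a gene list with the number of its genes tested, and each point the log2 fold change, tMCAO_MG_CON over sham_MG_CON, of 1 gene (red called higher, blue called lower, grey not called, black bar the list's median). Pan-reactive astrocyte genes have the highest median, 2.89, and activity-induced immediate early genes carry 7 of the falls.

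Heat shock genes rose, some from low and some from high levels in sham brain. Of 17 chaperones and co-chaperones, 12 were called higher and none lower (median 0.71). The count was 8 without sham replicate 2 and 9 without sham replicate 1, sham replicate 3 or occluded replicate 3. Hspa1a and Hspa1b, inducible copies of the 70 kDa chaperone, are near-identical neighbours on chromosome 17 (34969190 to 34972156 and 34956436 to 34959238), so reads can be split between them. Hspa1a stood at 7.03, 8.91 and 8.87 CPM in sham and at 102, 70.3, 97.5 and 96.3 CPM in occluded libraries (3.47 ± 0.16, edgeR adjusted p = 2e-07). Hspa1b stood at 5.85, 8.67 and 8.98 CPM and at 124, 68.4, 84.9 and 102 CPM (3.60 ± 0.23, edgeR adjusted p = 2.9e-06). For both genes occluded replicate 2 was the lowest of its group and still several times above every sham library. Hsp90aa1, the inducible cytosolic chaperone, rose from 529, 542 and 689 CPM to 1379, 892, 1285 and 898 CPM (0.92 ± 0.16, edgeR adjusted p = 0.004). Summed over the list, levels were 3679 to 4073 CPM in sham and 6413, 4601, 5801 and 4837 CPM in occluded libraries, highest in replicate 1.

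The heat shock element, written as GAA, 2 bases of any kind, TTC, 2 bases of any kind and GAA and searched on both strands, lay in a promoter window of 4 of the 13 list genes with an entry and of 0.575% of all genes with one. Those 4 were Chordc1, Hspd1, Hspe1 and Hsph1, and the windows of Hspd1 and Hspe1 overlap, since these genes start next to each other on opposite strands. This list was also chosen with its genes known, so the match describes its members. Hspe1, the small mitochondrial chaperonin, is shown, singled out for its match. It went from 35.6, 25.1 and 25.2 CPM to 57.3, 45, 45.9 and 44.5 CPM (0.75 ± 0.13, edgeR adjusted p = 0.0051), with separate groups, whereas Chordc1 had a log2 fold change of 0.09 (edgeR adjusted p = 0.68) with 3 matches. The 200 bases before the start of Hspe1 (chr1:55087948-55088147, plus strand) follow, with 2 overlapping matches in capitals.
Hspe1: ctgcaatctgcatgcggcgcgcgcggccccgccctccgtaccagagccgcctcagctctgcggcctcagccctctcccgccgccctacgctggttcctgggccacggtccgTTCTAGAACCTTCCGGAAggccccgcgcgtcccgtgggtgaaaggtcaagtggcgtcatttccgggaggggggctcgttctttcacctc

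Of 17 genes of the unfolded protein response, which handles misfolded protein in the endoplasmic reticulum, 2 were called higher (5.14% over all genes tested) and none lower (median 0.13). They were Trib3, a pseudokinase (1.65 ± 0.26, edgeR adjusted p = 0.0025), and Sesn2, a stress-induced regulator of growth signalling. Sesn2 stood at 16, 17.9 and 19.3 CPM in sham and at 51.2, 29.4, 28.1 and 29.5 CPM in occluded libraries (0.96 ± 0.18, edgeR adjusted p = 0.0073), so replicate 1 was again the high library. Of 16 bZIP and stress transcription factors, 9 were called higher and none lower (median 0.77), and 5 without sham replicate 3. Maff, a small partner of larger bZIP factors, rose from 1.34, 1.14 and 1.41 CPM to 5.08, 5.47, 6.53 and 4.46 CPM (2.04 ± 0.19, edgeR adjusted p = 5.5e-05), and Atf3 from 1.18, 0.179 and 0.395 CPM to 4.97, 8.87, 12.2 and 4.46 CPM (3.66 ± 0.53, edgeR adjusted p = 0.0015). Without sham replicate 1 the log2 fold change of Atf3 was 4.68. Fosl1, an AP-1 subunit, had 179 counts in occluded and 2 in sham libraries, a ratio of 62 (95% Poisson interval 16.9 to 516), with exons of another gene on the opposite strand.

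Of 18 p53 target genes, 7 were called higher and none lower (median 0.41). Cdkn1a, the inhibitor of cyclin-dependent kinases, rose from 18.3, 17 and 11.7 CPM to 61.4, 73.2, 49.1 and 51.2 CPM (1.90 ± 0.30, edgeR adjusted p = 0.0023). Pmaip1, a pro-apoptotic BH3 protein, rose from 3.65, 3.59 and 4.41 CPM to 13.7, 9.54, 6.76 and 8.25 CPM (1.30 ± 0.22, edgeR adjusted p = 0.0039). Mdm2 and Bax, other common targets, had log2 fold changes of 0.20 and 0.11 (edgeR adjusted p = 0.17 and 0.52). Of 16 cell cycle genes, 4 were called higher and none lower (median 0.55), among them 3 subunits of the replicative helicase. Mcm3 rose from 2.09, 2.69 and 2.15 CPM to 10.1, 5.51, 9.76 and 5.87 CPM (1.75 ± 0.31, edgeR adjusted p = 0.0051), while Mki67, a marker of dividing cells, changed by 1.11 (edgeR adjusted p = 0.24) and Top2a by 2.04 (edgeR adjusted p = 0.089).

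Iron, oxidant and metal handling genes moved in both directions. Of 16 genes of the NRF2 antioxidant and iron list, 7 were called higher and 1 lower (median 0.53). Hmox1, which degrades heme, on chromosome 8 from 75093621 to 75100589, rose from 6.12, 4.43 and 6.16 CPM to 40.7, 77.1, 120 and 34.7 CPM (3.61 ± 0.39, edgeR adjusted p = 0.00017). Slc40a1, the iron exporter ferroportin, fell from 13.1, 13.6 and 12.1 CPM to 8.44, 6.95, 7.88 and 6.64 CPM (-0.79 ± 0.16, edgeR adjusted p = 0.0088). The groups of both genes were separate. Transcripts of 4 hemoglobin genes, which mark red cells, summed to 2.2, 29.7 and 11.6 CPM in sham and 34.6, 11.4, 7.06 and 0.679 CPM in occluded libraries and overlapped, and their part in the rise of Hmox1 was not tested. Of 12 glucocorticoid target and metallothionein genes, 4 were called higher and none lower (median 0.45), with Mt1, a metal-binding protein, at 104, 109.9 and 115 CPM in sham and 216, 299.7, 186 and 259.8 CPM after occlusion (1.14 ± 0.16, edgeR adjusted p = 0.00098).

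Of 18 lysosomal genes, 8 were called higher and none lower (median 0.28), and 3 without sham replicate 1 or without sham replicate 3. Ctsz, a cathepsin, rose from 30, 34.3 and 28.6 CPM to 51.4, 52.7, 65.3 and 55.9 CPM (0.86 ± 0.10, edgeR adjusted p = 0.00032). Among 19 genes of cholesterol synthesis and efflux, Ch25h, which makes an oxysterol in activated macrophages, was the 1 call (3.69 ± 0.58, edgeR adjusted p = 0.0025), and it was 4.86 on the log2 scale without sham replicate 2. A single call of 19 is near the 5.14% of all genes tested that were called higher. Without occluded replicate 1, 4 genes were called higher. Of 19 hypoxia and glycolysis genes, 2 were called higher (5.14% over all genes tested) and none lower (median 0.00). Neither call held without sham replicate 1 or without sham replicate 3. Without sham replicate 2, or without occluded replicate 1, 2 or 3, 1 call was left. Vegfa, an angiogenic factor that hypoxia induces, changed by -0.44 (edgeR adjusted p = 0.18).

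**Figure D3:**
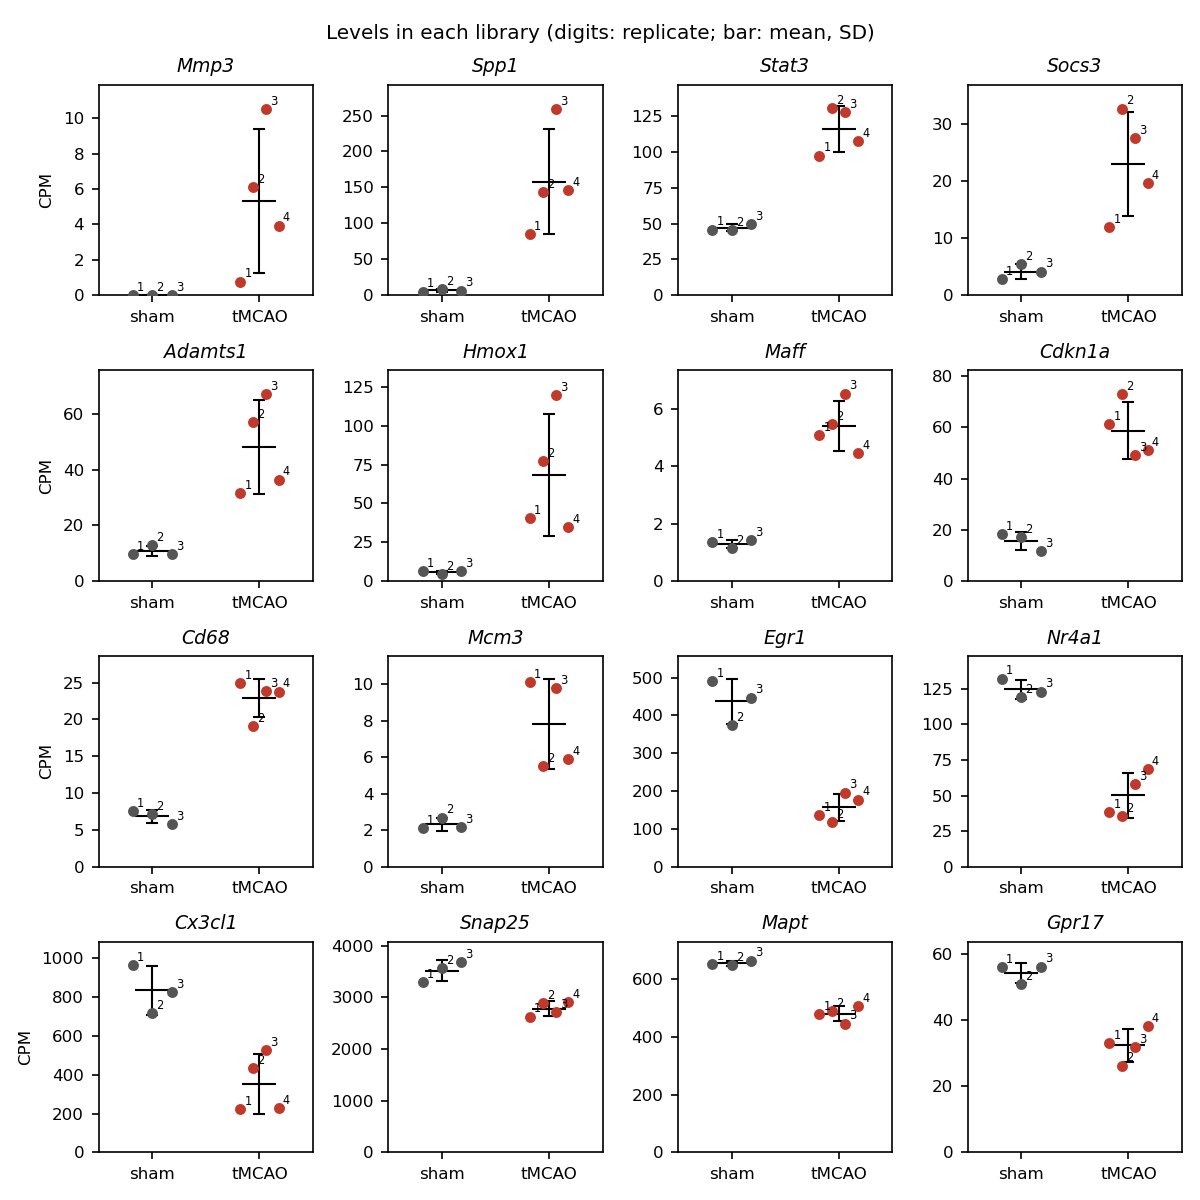
CPM of 16 genes in each library, with sham_MG_CON in grey (n = 3) and tMCAO_MG_CON in red (n = 4), digits giving the replicate, bars the mean and the SD, and each axis starting at 0. The first 10 genes were higher and the last 6 lower in every occluded library than in every sham library, and occluded replicate 3 is the highest for Mmp3, Spp1, Adamts1, Hmox1 and Maff.

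Part of the genes that neuronal activity induces fell. Of 18 immediate early genes, 7 were called lower and none higher (median -0.90), and 4 without sham replicate 3. Egr1, a zinc finger transcription factor, stood at 491, 374 and 447 CPM in sham and at 138, 118, 196 and 177 CPM in occluded libraries (-1.48 ± 0.23, edgeR adjusted p = 0.0025). Nr4a1, an orphan nuclear receptor, fell from 132, 119 and 123 CPM to 38.5, 35.4, 58.2 and 68.6 CPM (-1.31 ± 0.28, edgeR adjusted p = 0.012). Occluded replicates 3 and 4 kept more of both than replicates 1 and 2. Egr3 (-1.01 ± 0.18) and Egr4 (-1.31 ± 0.25), of the same family as Egr1, fell as well (edgeR adjusted p = 0.0057 and 0.0074), and Arc, a protein of active synapses, by 1.05 ± 0.23 on the log2 scale (edgeR adjusted p = 0.015), a call that ended without sham replicate 3. The members Fos and Npas4 had log2 fold changes of -1.01 and -0.99 and did not pass (edgeR adjusted p = 0.072 and 0.17), and Bdnf changed by -0.06 (0.92).

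Cx3cl1, the neuronal ligand of the microglial fractalkine receptor, fell by more than 2-fold. On chromosome 8 from 94772009 to 94782427, it stood at 965, 715 and 824 CPM in sham and at 221, 436, 525 and 228 CPM in occluded libraries (-1.24 ± 0.26, edgeR adjusted p = 0.012). Occluded replicates 1 and 4 were lowest, and the groups were separate, but the call ended without sham replicate 1. Cbln2, a secreted synapse organiser, fell from 37.7, 38.3 and 40.8 CPM to 16.1, 20.2, 15.7 and 17.4 CPM (-1.17 ± 0.19, edgeR adjusted p = 0.0034), with libraries tight in both groups. Lypd6, a modulator of nicotinic receptors, had the largest fall among genes with separate groups and at least 1 FPKM, from 33, 32.1 and 32.3 CPM to 6.46, 5.08, 6.47 and 8.73 CPM (-2.28 ± 0.51, edgeR adjusted p = 0.016), a call that ended without sham replicate 3. Among the depleted sham libraries it stood at 6.49, 6.32, 26.6 and 25.2 CPM, so both levels also occurred within that group without any occlusion.

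Synaptic genes fell by small amounts. Of 17 synaptic vesicle genes, 8 were called lower and none higher (median -0.29), and with library totals only 7 were lower. The count of falls was 3 without sham replicate 1 and 4 without sham replicate 3. Snap25, a SNARE protein of vesicle fusion, fell from 3291, 3565 and 3689 CPM to 2629, 2892, 2707 and 2907 CPM (-0.34 ± 0.06, edgeR adjusted p = 0.0067). Unc13a, which primes vesicles, fell from 654, 532 and 637 CPM to 377, 299, 345 and 359 CPM (-0.82 ± 0.13, edgeR adjusted p = 0.0023), and Stx1a, its SNARE partner, from 355, 292 and 333 CPM to 198, 167, 213 and 218 CPM (-0.72 ± 0.12, edgeR adjusted p = 0.0043). For each of the 3 genes every occluded library lay below every sham library. Mapt, the axonal protein tau, fell from 652, 649 and 666 CPM to 481, 489, 447 and 509 CPM (-0.45 ± 0.06, edgeR adjusted p = 0.00057). It was 1 of 3 called lower among 15 cytoskeletal genes, against 3.31% over all genes tested.

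Large falls in CPM were seen in abundant neuronal transcripts. Meg3, a long noncoding RNA, on chromosome 12 from 109541001 to 109571726, fell from 6081, 6830.4 and 5849 CPM to 3686, 5024, 3673 and 4281 CPM (-0.59 ± 0.10, edgeR adjusted p = 0.0043). Camk2a, a kinase of excitatory synapses, fell from 3008, 3575 and 3525 CPM to 2242, 2483, 2037 and 2939 CPM (-0.47 ± 0.10, edgeR adjusted p = 0.015), a call that ended without sham replicate 2 or 3. Replicate 4 was the highest occluded library for Camk2a, and the groups of both genes were separate.

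Neuronal marker lists moved less clearly. Of 15 excitatory cortical genes, 4 were called lower and none higher (median -0.26), with no call without sham replicate 3 and 2 without sham replicate 1 or sham replicate 2. Of 24 glutamate and GABA receptor genes, 5 were called lower (median -0.21), with no call without sham replicate 3, 1 without sham replicate 2 and 2 without occluded replicate 3. It was 3 without sham replicate 1 or occluded replicate 2. With library totals only, 2 receptor genes were lower and 1 higher. Of 18 striatal projection neuron genes, 1 was called lower (median -0.20), against 3.31% over all genes tested. It was Penk, the enkephalin precursor (-0.86 ± 0.20, edgeR adjusted p = 0.017), and that call ended without sham replicate 3. Of 18 respiratory chain genes, edgeR called none (median -0.11), with 8 at an unadjusted p under 0.05, while DESeq2 called 2, mt-Co1 and Cox6c, and limma none. The mitochondrial gene mt-Co1 stood at 30391, 29236 and 30332 CPM in sham and 25880.4, 26043, 26864 and 29193 CPM in occluded libraries (-0.15 ± 0.06, edgeR adjusted p = 0.13).

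In the oligodendrocyte lineage the falls were few. Gpr17, a receptor of committed precursors, fell from 56, 50.8 and 56.1 CPM to 33.1, 26.2, 31.8 and 38.1 CPM (-0.75 ± 0.11, edgeR adjusted p = 0.0022), with separate groups. It was 1 of 2 called lower among 12 precursor genes (median -0.15), against 3.31% over all genes tested. The other was Cspg4, the NG2 proteoglycan, whose call ended without sham replicate 1, sham replicate 3 or occluded replicate 2 or 3. Of 14 myelin genes, 4 were called lower (median -0.32), but 1 with library totals only and 1 without sham replicate 1 or sham replicate 2. Cnp, a myelin enzyme, fell from 168.5, 157.2 and 154.7 CPM to 117.5, 126.4, 131.2 and 120.1 CPM (-0.37 ± 0.07, edgeR adjusted p = 0.0083).

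Some of the largest rises belonged to no list. A2m, a secreted protease trap of the acute phase, rose from 0.536, 1.2 and 1.81 CPM to 18.7, 48.5, 54.6 and 40 CPM (5.10 ± 0.44, edgeR adjusted p = 3.1e-05). Tgm1, a protein-crosslinking enzyme, rose from 0.107, 0 and 0.339 CPM to 7.06, 18.7, 42.2 and 6.74 CPM (6.89 ± 1.0, edgeR adjusted p = 0.0015), with 8.20 without sham replicate 3 and 6.10 without occluded replicate 3. Slc10a6, a steroid sulfate transporter, had no count in sham and 0.993, 4.6, 2.12 and 1.89 CPM in occluded libraries, at least 14.5-fold higher against a floor of 3 counts per sham library (edgeR adjusted p = 0.0015). Hcar2, a receptor for the ketone body beta-hydroxybutyrate, had 2 counts in sham and 1.16, 3.31, 2.53 and 1.7 CPM in occluded libraries, a ratio of 58.2 (95% Poisson interval 15.9 to 484). Occluded replicate 4 was the lowest of its group for Tgm1 and replicate 1 for the other genes.

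The 4 occluded libraries differed in the size of the response. Of the 432 genes called higher by at least 2-fold, replicate 3 was the highest library for 274, replicate 2 for 88, replicate 1 for 41 and replicate 4 for 29. The lowest library was replicate 1 for 232 of them, replicate 4 for 107, replicate 2 for 68 and replicate 3 for 25. The median of their log2 ratios to the sham mean was 1.34, 1.63, 1.96 and 1.54 in replicate order. The falls did not follow this order, since among the 560 genes called lower the median was -0.43, -0.44, -0.43 and -0.35. The summed level of the heat shock list was highest in replicate 1. The labels give no measure of lesion size or handling, and these differences were not tested.

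**Figure D4:**
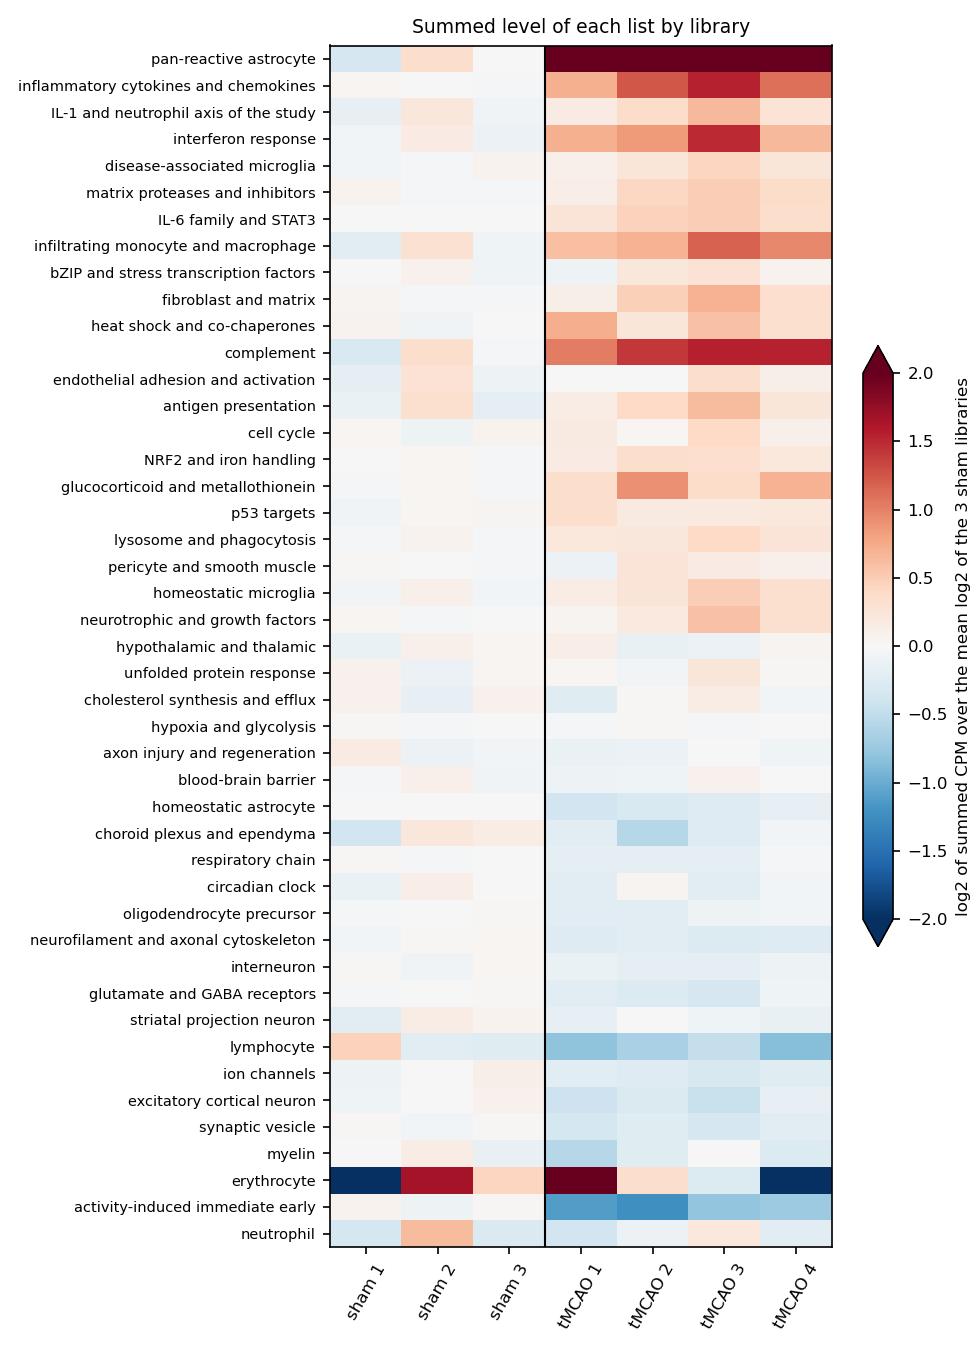
Colour gives the log2 of each list's summed CPM in each library, relative to the mean log2 of the 3 sham libraries, with red above, blue below and colours saturating at 2 and -2. Rows are ordered by the list's median log2 fold change. Sham replicate 2 differs from the other sham libraries in the neutrophil row, and the 3 sham libraries differ from each other in the erythrocyte row. Occluded replicate 3 is the darkest for interferon and cytokine genes.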

How the data were processed

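RNA from the brains of 13 mice was measured in 4 groups, and 7 libraries are compared here. The members and gene lists were chosen with earlier results of these data known. Per the labels' protocols, a spin column kit and a TruSeq kit gave paired-end RNA libraries. Per the file headers, each gene has counts and FPKM values for each library. The counts deposited are whole numbers without normalization, and the FPKM values deposited by the authors scale counts to length and library size. The submitters' processing notes name Cufflinks 2.1.1, Cuffdiff and the build mm10. The aligner, annotation, counting tool and strand setting were not given in the sources used here.

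The 21056 genes in all 4 tables were joined by name. Genes listed only in the sham (1002) or only in the tMCAO tables (1052), and 24 names turned into dates, were left out, and 29 repeated symbols were summed. Counts were scaled with TMM and filtered with filterByExpr, which kept 16940 genes and removed 4116. A model of 4 group means over 13 libraries was fitted with edgeR 4.0.16 in R 4.3.3 by the quasi-likelihood test (biological coefficient of variation 15.2%), two-sided, with Benjamini-Hochberg adjustment at 0.05. Standard errors are the absolute log2 fold change over the square root of F. Libraries were treated as separate animals. Libraries of a group all differed by more than sampling noise, the smallest chi-square per gene being 11.1. Poisson intervals and floors cover counting error only.

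Genes were named by rule: the 15 largest rises and 15 largest falls with separate groups and at least 1 FPKM, the 10 largest rises and falls in CPM, up to 3 called members per direction of each of 45 lists (without calls, the 2 most abundant), and 5 genes of the title and of the depletion. Of 147 named genes, those told here were trimmed, and genes given beside them by log2 change alone, or said to be singled out, were chosen after their values were seen. Coordinates are those of GENCODE M21. Alternatives were other scalings, filters and tools (DESeq2 1.42.0, limma 3.58.1), fewer libraries and a replicate block. The model was also run on simulated data. These gave all genes a common spread and held no library that stood apart, so they do not test the calls made here. 1 named gene is not reported here.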

Additional observations from a re-analysis of the deposited data

Results flagged for a closer look

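Among the 4 occluded libraries, 1 library lay far from the other 3 in 8 of the 147 genes named by rule, by the gap to its nearest neighbour over the whole range. Chance flags about 1 in 20 groups, so this number is near what chance gives. Replicate 3 was high for Timp1 (8.94 CPM, against 2.54 to 3.16 CPM), for Lgals3 (10.8 CPM, against 4.47 to 4.89 CPM) and for Pja1, a ubiquitin ligase (72.5 CPM, against 38.4 to 42.7 CPM), and low for Map1a, a microtubule-associated protein (1333 CPM, against 1608 to 1642 CPM). Replicate 1 was high for Sesn2 (51.2 CPM, against 28.1 to 29.5 CPM) and low for Aldh1l1 (84.6 CPM, against 102 to 105 CPM) and Stmn4, a neuronal stathmin (110.4 CPM, against 124 to 126 CPM). Replicate 2 was low for Tjp1 (129.9 CPM, against 148.3 to 151.1 CPM).

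Signal also appeared in genes listed only in the occluded tables, which were not tested above. With 0 set in the sham libraries, Ccl11, the chemokine eotaxin, had 1, 45, 15 and 18 counts (log2 fold change 7.24, edgeR adjusted p = 0.044). Serpina3i had 3, 25, 7 and 15 counts (6.59, edgeR adjusted p = 0.025) and Serpina3m 5, 25, 5 and 12 counts (6.51, edgeR adjusted p = 0.022). Both belong to the family of Serpina3n, whose members are close copies of each other, so reads can be split among them. The fitted values of genes at 0 in sham depend on the prior count and are no bound.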

How the results depend on the processing

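The main analysis called 1430 genes, 465 of them at 2-fold or more. Leaving out 1 library of the 13 gave 564 to 1814 calls, and 286 to 524 at 2-fold or more. The 2-fold count was 288 without sham replicate 1 and 286 without sham replicate 3. Requiring a mean of 50 counts gave 270 calls at 2-fold or more, since fewer genes are tested, and limma on log2(FPKM + 1) gave 150, since the pseudocount shrinks the change of low genes. DESeq2's Wald test called 1992 genes. The share of rises also moved with limma, to 1522 of 1785 calls with a pseudocount of 0.1 and 1471 of 1736 with 1. Of the 134 named genes called, 89 were called in every setting in which they were tested, and none of the 134 changed sign. Named genes that were not called could change sign. Cx3cr1 went from -2.52 to 0.39 on the log2 scale without sham replicate 2. Some named genes with low counts were not tested in every setting, such as that requiring a mean of 50 counts. Chosen after the data were seen, leaving out sham_MG_CON replicate 2 with sham_MG_DE replicate 3, the libraries that share islet transcripts, gave 954 calls, setting unlisted genes to 0 gave 1434, and the 7 libraries without occluded replicate 4 gave 975. Without occluded replicate 4 alone there were 1241.

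Replicate numbers are shared between the groups but come from different animals, and deviations of same-numbered libraries correlated at -0.006, 0.04 and -0.027. Libraries were not paired by number in the main fit, and whether same-numbered libraries shared a batch was not tested. A fit with the replicate number as a block called 958 genes, 402 of them at 2-fold or more.

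Low counts limit Mmp3, Selp, Slc10a6, Cxcl5 and Tnf to bounds or wide ratios, and with 3 sham libraries the calls of small changes rest on each of them.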

Other observations

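Some well-expressed genes sat at either of 2 levels, with libraries of the same group on both. By a rule set after the values were seen, 61 of 10017 genes with a mean of at least 200 counts had a gap of at least 1 on the log2 scale that split a group and was wider than the spread within either level. Rac1, a small GTPase, stood at 281, 263 and 266 CPM in sham and at 286, 105, 92.6 and 309.7 CPM in occluded libraries. Kpna1, a nuclear import receptor, stood at 173.1, 170.9 and 174.9 CPM in sham and at 55, 49, 170.8 and 168.6 CPM in occluded libraries. Tmem127 stood at 22.3, 16.4 and 12.5 CPM and at 14.7, 135, 121 and 117 CPM, and was called higher (log2 fold change 2.51 ± 0.70, edgeR adjusted p = 0.043). The split did not follow 1 library, since occluded replicates 2 and 3 were low for Rac1, and replicates 1 and 2 for Kpna1. Of the 61 genes, 2 were called, Tmem127 and Lypd6, which is 3.28%, against 8.44% of all genes tested. The cause was not tested.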
